A study of Mus musculus with 6 samples.

Results

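Complement components and their regulators were examined in the cochlear sensory epithelia (CSE) of P3 and adult mice. The members were C1qa, C1qb, C1qc, C1ra, C3, C3ar1, Cfb, Cd55 and Serping1, and every probe set that the array annotation assigns to 1 of these genes alone was taken. This gave 14 of the 45101 probe sets, for 8 of the 9 genes, out of 18194 genes with such a probe set. C3 was not analysed here, because the annotation used lists no probe set for it. P3 mice were 3 days old and adults were 8 weeks old. All were Swiss mice (Swiss Webster in the study's methods), with no treatment, transgene or mutant allele named. RNA was measured on 6 Affymetrix Mouse Genome arrays, 3 per stage, each holding 40 CSE pooled from 20 mice in a separate dissection, so that each stage drew on 60 mice. The CSE is the sheet of hair cells and supporting cells, freed of most other cochlear tissue, the lateral wall included. It still held the ridges beside the organ of Corti at P3, and the inner sulcus and the interdental cells of the limbus in the adult, so the stages differ in cell make-up as well as age.

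Complement is a cascade of plasma and tissue proteins that tags microbes, debris and, in the nervous system, some synapses for removal. In the classical pathway C1q binds a target and the proteases C1r and C1s cut C4 and C2, whereas factor B, encoded by Cfb, serves the alternative pathway, and both routes meet at the cleavage of C3. Host cells are spared by inhibitors such as the C1 inhibitor (Serping1), the decay accelerating factor (Cd55) and Cd59, and C1q in tissue is made mainly by macrophages and microglia.

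The values are MAS5.0 signals, which estimate the brightness of a probe set on a linear scale. A signal counted as above background when it passed the 90th percentile of 83 probe sets for olfactory, vomeronasal and taste receptors on its array. P3 replicate 1 stood apart from the other arrays. Its background was 34.5 against 6.29 to 16.3 elsewhere, 47.4% of its probe sets were above background against 58.6% to 68.1%, and its 3' to 5' ratio for Gapdh was 82.0 against 0.707 to 2.07. On all 14 member probe sets this array gave the highest signal of the P3 arrays (9) or the lowest (5), which was also so for 88.7% of all probe sets tested. The main values are therefore also given without it. Some hair cell markers were above background on every array of both stages. Myo7a, a myosin of the hair bundle, read 50.4 to 76.3 at P3 and 52.9 to 59.9 in the adult. Otof, the calcium sensor of the hair cell synapse, read 78.7 to 105 and 55.7 to 71.7. Of 10 hair cell markers with a probe set 8 passed the signal filter, and so did all 13 supporting cell markers. Among those 8, all 3 P3 arrays were above background for 5 and all 3 adult arrays for 4. Slc26a5 and Tmc1 did not pass the filter, and Atoh1 was above background on no adult array. As the samples were bulk tissue, fewer cells of a type and less RNA per cell cannot be told apart.

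Of the members, Serping1 alone was up-regulated in the adult CSE, and no member was higher at P3 by the test. It was 3.29-fold higher in the adult. The 3 chains of C1q had higher mean signals in the adult without passing the test, and Cfb, C3ar1 and Cd55 were dim or varied as much within a stage as between stages. Stages were compared on log2 signals with limma (two-sided, Benjamini-Hochberg adjustment over the 29036 probe sets above background on at least 3 arrays). A probe set was called when its adjusted p was under 0.05 and the stages differed by 2-fold or more. A positive log2 fold change means higher in the adult. All 14 member probe sets passed the signal filter, 6 of them above background on all 6 arrays. Of the 14, 1 was called, against 7.26% of all probe sets tested (3.39% in the adult direction and 3.87% in the P3 direction). Of the 8 genes, each read by its brightest probe set, 1 was called, against 10.0% of all genes (4.53% and 5.49% in these directions). The share of calls among the members was thus near that of the array as a whole. An unadjusted p under 0.05 was found for 2 of the 14, against 23.7%. The median log2 fold change was 0.73 over the 8 genes and -0.04 over all genes. Over the 14 probe sets it was 0.355, against 0.0449 over all probe sets tested. The median over the 8 genes was 0.57 without P3 replicate 1 and 0.41 with signals below background raised to it. The stages did not overlap on 4 of the 14 probe sets, against 31.1% of all probe sets, with 3 higher in the adult (15.5% of all) and 1 higher at P3 (15.6%), and on 4 of the 8 genes, against 36.2%. For a single value, exact permutation of the 6 arrays gives a p of 0.1 at the least.

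**Figure D1:**
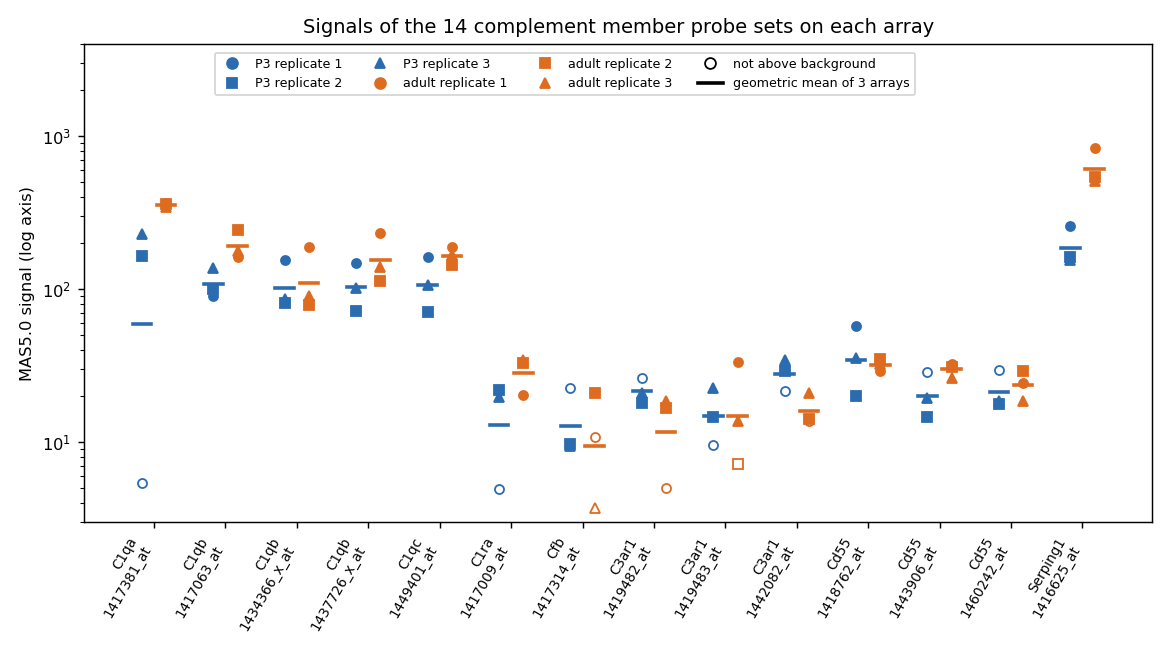
MAS5.0 signal (vertical log axis) of each of the 14 member probe sets on the 3 P3 (blue) and 3 adult (orange) arrays, with open symbols for signals not above background and bars at the geometric mean of 3 arrays. Serping1 is the member probe set whose adult signals, 512 to 834, lie farthest above its P3 signals, 154 to 259, while the C1qa mean at P3 is set by 1 array at 5.39.

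Serping1 encodes the C1 inhibitor, a serpin that inactivates C1r, C1s and the lectin pathway proteases and also restrains kallikrein. P3 replicates 1, 2 and 3 read 259, 163 and 154, and the adult replicates, in the same order, 834, 544 and 512. All later signals are given in this order. The lowest adult array lay well above the highest P3 array. The mean signal was 192 ± 58.1 at P3 and 630 ± 177 in the adult (SD, n = 3). On the log2 scale the fold change came to 1.72 (SE 0.29, 95% interval 1.05 to 2.38, adjusted p = 0.0117). With any single array left out it stayed called, with a log2 fold change of 1.5 to 1.95 and an adjusted p of 0.0066 to 0.0471, and it was 1.95 without P3 replicate 1. Its call was lost when the variance model had no intensity trend (adjusted p = 0.0566).

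Cd55, the membrane protein that speeds the decay of C3 and C5 convertases, showed no called difference at any of its 3 probe sets. At the brightest the signals were 57.9, 20.2 and 35.3 at P3 and 29.2, 34.9 and 32.7 in the adult. The P3 arrays thus spread on both sides of the adult arrays. The log2 fold change was -0.10 (SE 0.47, 95% interval -1.17 to 0.97, adjusted p = 0.920), and 0.27 without P3 replicate 1. The other probe sets gave 0.57 (adjusted p = 0.501) and 0.14 (0.889), with 95% intervals of -0.48 to 1.61 and -0.94 to 1.23, and the second ran from -0.01 to 0.38 with 1 array left out. Cd55b, the copy of Cd55 next to it in the genome, was above background on none of the 6 arrays, and neither was a probe set shared by both genes.

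C1q is a hexamer of trimers built from the chains of C1qa, C1qb and C1qc, neighbouring genes in the RefSeq annotation. C1qa read 5.39, 165 and 230 at P3 and 367, 363 and 343 in the adult. The adult arrays lie close together and above all P3 arrays, of which replicate 1 was not above background. The log2 fold change was 2.60 with an SE of 1.2 (95% interval -0.14 to 5.35, adjusted p = 0.235). Without P3 replicate 1 it was 0.88 (SE 0.22, adjusted p = 0.0481), below the fold of a call, so 1 array sets the size of the C1qa difference.

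C1qb at its brightest probe set gave 90.3, 101 and 139 at P3 and 162, 245 and 178 in the adult, again without overlap. Its log2 fold change was 0.83 (SE 0.28, 95% interval 0.20 to 1.46, adjusted p = 0.111), and 0.70 without P3 replicate 1 (adjusted p = 0.145). The other 2 C1qb probe sets, whose _x_at suffix marks probes that can also match other transcripts, had overlapping stages and log2 fold changes of 0.58 (adjusted p = 0.390) and 0.11 (0.905). The latter ran from -0.28 to 0.40 with 1 array left out, so it has no settled direction. C1qc gave 163, 70.9 and 107 at P3 and 189, 144 and 167 in the adult. Here P3 replicate 1 lay among the adult arrays, where for C1qa it was the lowest of all. The C1qc log2 fold change was 0.63 (SE 0.33, 95% interval -0.13 to 1.38, adjusted p = 0.295), and 0.93 without P3 replicate 1 (SE 0.27, adjusted p = 0.0717). Without that array the brightest probe sets of the 3 chains therefore differed between the stages by 0.70 to 0.93 on the log2 scale, and none was called.

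**Figure D2:**
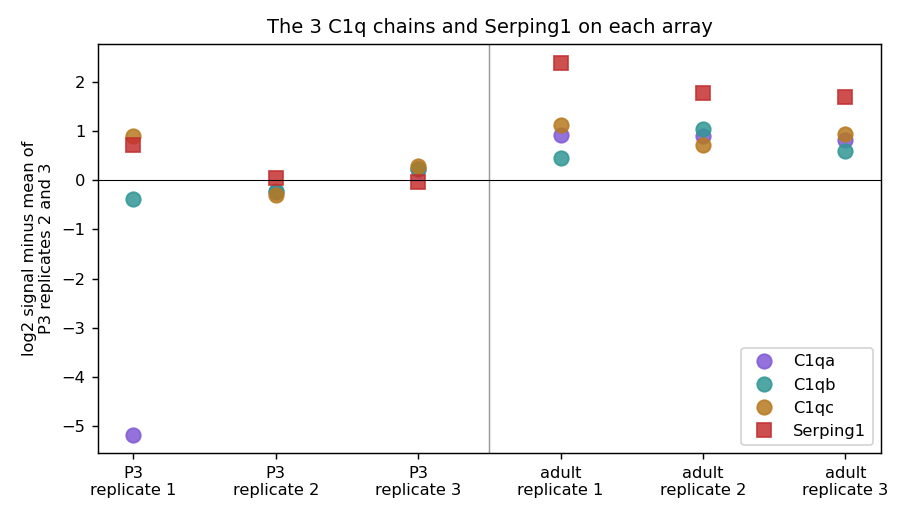
Log2 signal of the brightest probe set of C1qa, C1qb, C1qc and Serping1 on each array (horizontal axis), relative to the mean of P3 replicates 2 and 3 (vertical axis). On the adult arrays the 3 chains lie between 0.46 and 1.12 and Serping1 between 1.69 and 2.39, whereas on P3 replicate 1 C1qa lies at -5.18, C1qb at -0.39 and C1qc at 0.90.

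Since the C1q chains are encoded side by side, the RefSeq sequences just upstream of C1qb and C1qc are shown, together with that of Cd59a, a regulator called higher in the adult below. Each is the 250 bases before the gene start, 5' to 3' on the gene's strand (GRCm38.p6; C1qb chr4:136886201-136886450 minus strand, C1qc chr4:136892915-136893164 minus strand, Cd59a chr2:104095551-104095800 plus strand). The table used has no entry for C1qa, Serping1, Cfb or C2.
C1qb: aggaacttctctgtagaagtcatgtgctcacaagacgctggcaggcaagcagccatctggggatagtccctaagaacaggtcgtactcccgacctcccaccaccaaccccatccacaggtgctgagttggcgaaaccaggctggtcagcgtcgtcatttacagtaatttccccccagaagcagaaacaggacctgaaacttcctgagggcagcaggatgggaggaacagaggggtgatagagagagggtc
C1qc: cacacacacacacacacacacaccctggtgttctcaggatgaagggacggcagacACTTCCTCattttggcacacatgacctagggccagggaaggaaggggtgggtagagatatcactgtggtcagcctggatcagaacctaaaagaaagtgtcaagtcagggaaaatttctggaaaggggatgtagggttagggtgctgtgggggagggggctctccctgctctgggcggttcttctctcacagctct
Cd59a: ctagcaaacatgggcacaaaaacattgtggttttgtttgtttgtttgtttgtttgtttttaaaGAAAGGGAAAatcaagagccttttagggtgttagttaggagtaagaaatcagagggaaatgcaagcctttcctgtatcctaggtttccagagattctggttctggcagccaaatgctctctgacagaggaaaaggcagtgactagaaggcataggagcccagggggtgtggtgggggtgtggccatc
Capitals mark matches, on either strand, to 3 motifs chosen after the values were seen. The core bound by PU.1 (GAGGAAGT), a transcription factor of myeloid cells, matched C1qc, and is found in 2.44% of the 32851 upstream sequences. The core of the interferon-stimulated response element, a pair of GAAA runs spaced by 2 bases, matched Cd59a, and is found in 2.98%. The GAS motif (TTCNNNGAA), bound by STAT factors and found in 7.02%, matched none of these 3, and none of the motifs matched C1qb. The upstream sequences of C1ra, C3ar1 and Cd55, searched in the same way and not shown, matched none of the motifs. A match describes the letters only.

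C1ra, the protease that C1q activates first, was dim. Its signals were 4.94, 21.9 and 19.9 at P3 and 20.3, 32.8 and 34.4 in the adult. The stages overlapped, and P3 replicate 1 was not above background. The log2 fold change was 1.14 (SE 0.68, adjusted p = 0.360), and 0.45 without that array (adjusted p = 0.494). A further probe set is shared with the near-identical copy C1rb and gave 1.08 (adjusted p = 0.412). C1s1, the partner protease encoded next to C1ra, gave 24.5, 43.1 and 36.3 at P3 and 25.1, 40.7 and 37.6 in the adult, for a log2 fold change of 0.00 (SE 0.42, adjusted p = 0.999).

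Cfb, the protease subunit of the alternative pathway convertase, was close to background at both stages. It read 22.7, 9.78 and 9.42 at P3 and 10.9, 20.9 and 3.75 in the adult. Only P3 replicates 2 and 3 and adult replicate 2 were above background, and the stages overlapped. The log2 fold change was -0.43 with a wide interval, -2.32 to 1.46 (adjusted p = 0.798), and -0.02 without P3 replicate 1.

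C3ar1, the receptor of the C3a fragment on myeloid cells, was measured by 3 probe sets, each above background on 2 arrays per stage. The brightest read 21.5, 29.1 and 34.5 at P3 and 13.8, 14.3 and 21.1 in the adult. The P3 arrays were higher by a small margin and without overlap. The log2 fold change was -0.79 (SE 0.48, 95% interval -1.89 to 0.30, adjusted p = 0.365), and -0.98 without P3 replicate 1 (adjusted p = 0.163). The other probe sets, whose stages overlapped, gave -0.89 (adjusted p = 0.463) and 0.02 (0.993), the second turning with the array left out (-0.56 to 0.54).

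The rest of the pathway was read from a list of 43 further complement genes. Of these, 34 had a probe set of their own and 17 passed the signal filter. By their brightest probe sets, C2 and Cd59a were higher in the adult, none was higher at P3, and the median log2 fold change was -0.16. These 2 calls among 17 genes stand against 10.0% of all genes (4.53% in the adult direction and 5.49% in the P3 direction). The stages did not overlap on 7 of the 17, against 36.2% of all genes. Cd59a, which blocks the membrane attack complex on the cell surface, gave 424, 376 and 364 at P3 and 1282, 1004 and 1257 in the adult. The 3.03-fold difference far exceeded the spread of either stage. Its log2 fold change was 1.60 (SE 0.21, adjusted p = 0.00455), it kept its call whichever array was dropped, and the second Cd59a probe set gave 1.16 without being called (adjusted p = 0.0833).

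C2, the protease that C1s and the lectin pathway proteases cut to form the classical convertase, lies next to Cfb in the genome. At its brightest probe set, an _x_at one, the signals were 84.9, 49.3 and 32.2 at P3 and 124, 150 and 210 in the adult. They did not overlap, and the log2 fold change was 1.62 (SE 0.40, adjusted p = 0.0447). This call held without P3 replicate 1 but not without any of the other 5 arrays (adjusted p between 0.0677 and 0.198), and it was lost with quantile normalization (0.0593), scaling to the same median (0.0854) and no intensity trend (0.104). Another C2 probe set gave 52.7, 43.5 and 34.7 against 126, 131 and 198, for a log2 fold change of 1.78 (SE 0.31, adjusted p = 0.0132). It lost its call only without P3 replicate 3 (adjusted p = 0.0546) or adult replicate 3 (0.0878) among the single arrays left out, and when arrays were scaled to the same median (0.0562). The third gave 1.18 and was not called (0.0992).

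The largest difference among complement probe sets belonged to one that the annotation assigns to both C4a and C4b, near-identical genes for component C4, so it can be given to neither gene. It was singled out after its values were seen. The signals were 4.94, 15.6 and 16.6 at P3 and 298, 160 and 276 in the adult. P3 replicate 1 was not above background, and the lowest adult array still lay far above every P3 array. The log2 fold change was 4.44 (SE 0.53, adjusted p = 0.00278). It was 3.88 without P3 replicate 1 and stayed called with any single array left out.

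Among the other partners, Itgb2, the beta chain of complement receptors 3 and 4, gave 28.9, 17.1 and 15.6 at P3 and 44.8, 131 and 52.6 in the adult. The stages did not overlap, yet the log2 fold change of 1.77 did not pass the test (SE 0.51, adjusted p = 0.0748). Without P3 replicate 1 it was called (adjusted p = 0.0408). At their brightest probe sets Masp1, Cd93, Cfi and Cr1l did not overlap either, but were higher at P3. Their log2 fold changes were -1.14 (adjusted p = 0.120), -0.98 (0.0833), -1.16 (0.177) and -0.49 (0.238), and none was called. The regulators Cd46 and Clu had log2 fold changes of -0.16 (adjusted p = 0.914) and -0.30 (0.821), and Clu, a chaperone that binds the membrane attack complex, ranged from 4729 to 29937 at P3, with the top value on P3 replicate 1. Without that array the log2 fold change turned positive for both, to 0.32 for Cd46 and 0.50 for Clu, and neither was called. Itgam and C5ar1 did not pass the signal filter. The same was true of Hc, C6, C8a, C8b and C9, components of the terminal pathway, and of the lectins Mbl1 and Mbl2. Other genes of these pathways did pass it, namely C8g of the terminal pathway and Masp1, Fcna, Fcnb and Colec11 of the lectin pathway, and none was called.

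**Figure D3:**
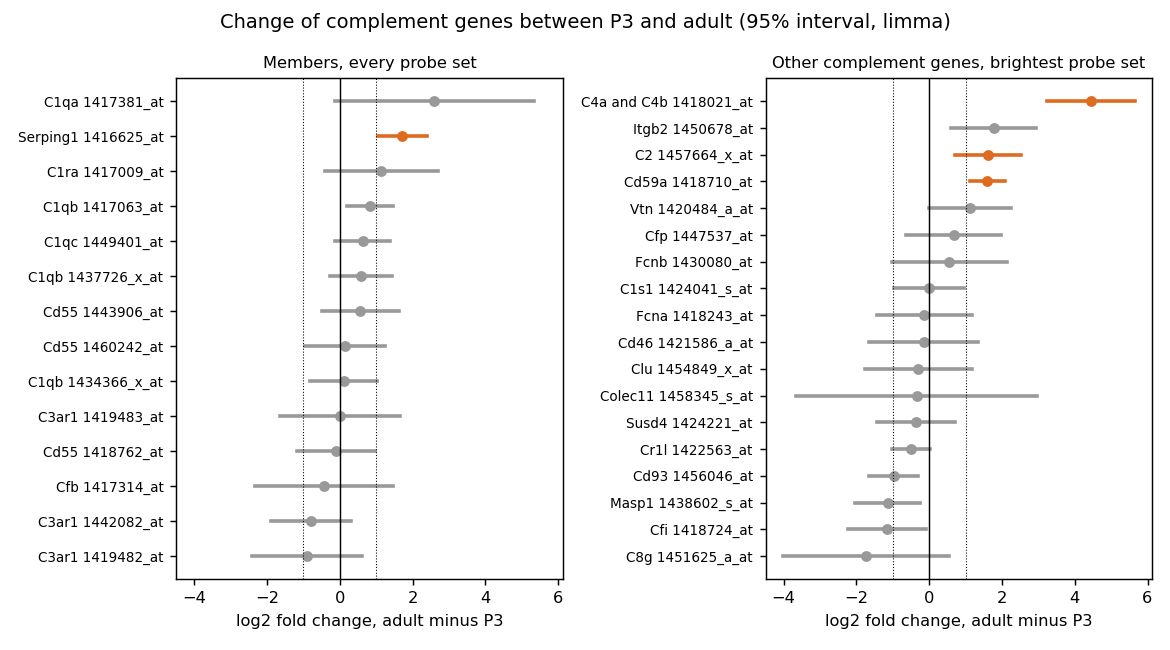
Log2 ratio of adult to P3 (horizontal axis), with its 95% interval for every member probe set (left) and for the brightest probe set of each other complement gene that passed the signal filter, plus the probe set shared by C4a and C4b (right). Orange marks the probe sets called higher in the adult, Serping1 at 1.72, Cd59a at 1.60, C2 at 1.62 and the shared C4 probe set at 4.44, and dotted lines mark the fold of 2.

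Markers of the cells that make C1q were not all called, nor in a single direction. Of 18 markers of macrophages and microglia 17 were measured, with 4 higher in the adult (Lyz2, Ptprc, Cd14 and Ctss), 1 higher at P3 (Mrc1) and a median log2 fold change of 0.26. With 1 array left out, the 4 were reduced to 1 when that array was replicate 2 or 3 of P3 or replicate 3 of the adult, and to 2 when it was adult replicate 1 or 2. Mrc1 lost its call in the first 3 of these cases. Scaling to the same median left 1 adult-high and no P3-high gene, and the fit with no intensity trend left 2 and none. Csf1r, the growth factor receptor of these cells, gave 1110, 560 and 622 at P3 and 803, 790 and 621 in the adult (log2 fold change 0.01, SE 0.30, adjusted p = 0.990). Cx3cr1, the fractalkine receptor, differed by -0.34 (adjusted p = 0.550) on the log2 scale, Aif1 by 0.08 (0.918), Fcgr3 by 0.01 (0.989) and Tyrobp by 0.72 (0.165). At the brightest probe sets the stages of these genes overlapped save for Tyrobp, which gave 254, 183 and 179 at P3 and 272, 475 and 290 in the adult. A dimmer Csf1r probe set was higher in the adult without overlap (log2 fold change 0.59, adjusted p = 0.299). A further Csf1r probe set overlapped (0.005, adjusted p = 0.993), and neither was called. The summed signal of the macrophage list was 2078 to 3041 at P3 and 3661 to 5613 in the adult. In it Lyz2 read 141 to 161 at P3 and 876 to 2251 in the adult, and Ctss 267 to 392 and 731 to 853. Mrc1 went the other way, at 203 to 290 and 62.1 to 105. Lyz2 (2251) and Ptprc (221) were highest on adult replicate 2, as was S100a9 of the granulocyte list (5165). At the brightest probe sets, other macrophage markers such as Aif1, Fcgr3, Cd14, Laptm5 and Tyrobp were also highest on this array. Among the adult arrays, Csf1r, Cx3cr1, Adgre1, Ctss and Fcgr1 were highest on another. Whether granulocytes added to the Lyz2 and Ptprc signals was not tested.

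Granulocyte and erythroid genes were called in the adult direction alone. Of 13 granulocyte genes measured 10 were higher in the adult, with a median log2 fold change of 4.80. Their summed signal was 140 to 490 at P3 and 4061 to 18409 in the adult. All 3 P3 arrays were above background for 3 of the 13 genes. Some, such as Lcn2 and Prg2, were above background on no P3 array, so they passed the filter through the adult arrays alone. With signals below background raised to it, 9 of 13 were called and the median was 3.68. A filter at 4 or more arrays above background left 8 genes, with 6 called. Of 5 erythroid genes 2 were higher in the adult, with a summed signal of 64.1 to 158 at P3 and 224 to 974 in the adult. Hemgn, 1 of these 2, and Rhag, which was not called, were above background on no P3 array, so they too passed the filter through the adult arrays alone. The erythroid count was 3 without P3 replicate 1 and 1 without any of the other 5 arrays. Of 12 fibroblast genes 1 was adult-high and 2 were P3-high, and of 11 endothelial genes 1 was higher in the adult. The endothelial call was lost without any 1 of the 3 adult arrays, and the adult-high fibroblast call on leaving out any array but P3 replicate 1 and adult replicate 2, while 4 fibroblast genes were P3-high without P3 replicate 1. At their brightest probe sets, 5 glial genes and 8 hair cell genes gave no call, and of 13 supporting cell genes 1 was adult-high and 5 were P3-high, with 2 adult-high without P3 replicate 1.

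Glial genes set adult replicate 1 apart. Gfap, the intermediate filament of astrocytes, read 251, 8.44 and 14.6 in the adult at its brightest probe set (3.74, 9.31 and 9.01 at P3) and was not called there (adjusted p = 0.310). A second Gfap probe set read 0.872, 0.604 and 1.02 at P3 and 274, 9.52 and 16.2 in the adult, and was called (log2 fold change 5.42, SE 1.35, adjusted p = 0.0464). It was above background on no P3 array, so the size of this difference rests on P3 signals below background. The call was lost with any single array left out. Of 15 alternatives 4 gave a call, and over the 15 the log2 fold change ran from 1.47 to 6.36. Mog, a myelin protein that did not pass the signal filter, read 140, 3.46 and 1.96 in the adult. The summed signal of the glial list ran from 4444 to 6463 at P3 and from 3605 to 15736 in the adult. Without adult replicate 1 the log2 fold change was 1.5 for Serping1 and 4.27 for the shared C4 probe set, both still called. The part of all these cell types in the Serping1, C2, Cd59a and C4 differences was not tested.

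**Figure D4:**
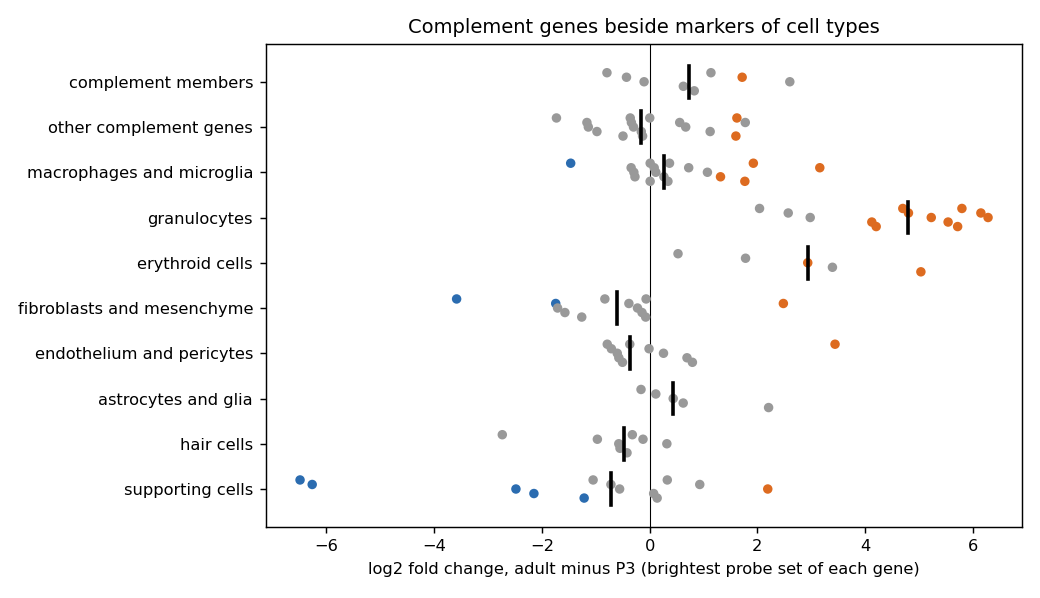
Log2 ratio of adult to P3 (horizontal axis) for the brightest probe set of each measured gene in the complement and cell type marker lists, where black lines are list medians. Orange marks genes called higher in the adult, blue those higher at P3 and grey those without a call, and the medians are 0.73 for the complement members, 0.26 for macrophages and 4.80 for granulocytes.

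To place the members among all genes, likeness was measured as the root mean square difference of centred log2 signals over the 6 arrays, where a smaller value is closer. Closest to Serping1 were Ttc39b (0.0950) and Gpm6a (0.0986), with log2 fold changes of 1.61 (adjusted p = 0.0242) and 1.83 (0.00745). Both were called higher in the adult, but closeness over the same arrays brings a similar fold change with it, so these calls add no support. Closest to C1qb were Tmem40 (0.0729) and Plpp1 (0.0779) and closest to C1qc were Syt9 (0.0736) and Atxn7l1 (0.0739). C1qa, with its single low array, was matched less closely by Selenoo (0.240) and Cebpb (0.260). The nearest to C1ra were Clip1 (0.0908) and 9230114K14Rik (0.103), to C3ar1 Erbb3 (0.0973) and Pofut2 (0.132), to Cd55 Zfp235 (0.129) and Cep152 (0.133), and to Cfb Ibsp (0.213) and Ppfia1 (0.221). No member was among the 2 closest genes of another over all 6 arrays. These include P3 replicate 1, on which C1qa, C1qb and C1qc lay at -5.18, -0.39 and 0.90 relative to the other P3 arrays. Likeness without that array was not computed.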

How the data were processed

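The 6 arrays (3 P3, 3 adult) were grouped by their sample titles, and no column was left unmatched. The authors computed the deposited MAS5.0 intensities with Affymetrix software (GCOS 1.2 in the submitters' processing notes), and the mean signal without the extremes is 100 on every array. The deposited intensities were used on the log2 scale without further normalization. The number of arrays limits the precision, and detection calls were not used here. Probe sets were named from an array annotation, in which 34945 name 1 gene, 932 several and 9160 none, and those naming several were used only where stated. Stages were compared with limma 3.58.1 in R 4.3.3 (lmFit, then eBayes with its intensity trend), with no covariate beside the stage. The fit was also tested on simulated data. SD is over 3 arrays and SE is limma's moderated standard error. SAM, which the methods name, was not run. A gene was represented by its brightest tested probe set. The text names every member, every called complement gene, the direct partners of members, a few markers and the 2 genes closest in pattern to each member. The members and lists were chosen with earlier results of these data known. Alternatives were 2 other normalizations, 3 signal filters, 2 treatments of background, no intensity trend, array quality weights, leaving out each array in turn, blocking on the replicate number and the mean over a gene's probe sets.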

Additional observations from a re-analysis of the deposited data

How the results depend on the processing

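The number of members called, 1, was 0 without the intensity trend and 1 under every other alternative run, each array left out included. Over all probe sets, the number called was 2109, and became 562 when arrays were scaled to the same median, 899 without the intensity trend and 7593 with array quality weights, and lay between 576 and 2839 with 1 array left out. The share of calls that were higher in the adult was 46.7% and became 58.1% with array quality weights. The count of other complement genes called, 2, became 1 with quantile normalization, scaling to the same median, no intensity trend or the replicate block, C2 being the gene lost each time. The count was 6 with array quality weights, 4 higher in the adult and 2 higher at P3, and 1 to 3 with 1 array left out. The replicate numbers were not taken to pair the samples, since the sample titles name no pairing. The correlation of deviations between same-numbered arrays was 0.182, 0.213 and 0.0762. Between arrays of different numbers it was lower, from -0.197 to 0.0543, and whether same-numbered arrays share a source of variation was not tested. With the replicate block, 2649 probe sets and 1 member were called. Erythroid genes called numbered 1 with scaling to the same median, no intensity trend or a filter at 4 arrays above background and 4 with array quality weights, and scaling to the same median left no endothelial call.

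None of the next 8 genes, whose differences changed sign, was called. With 1 array left out, the log2 fold change ranged from -0.999 to 0.24 for Cfb, -0.49 to 0.27 for Cd55, -0.23 to 0.21 for C1s1, -0.59 to 0.32 for Cd46, -0.83 to 0.50 for Clu, -0.18 to 0.31 for Csf1r, -0.15 to 0.24 for Aif1 and -0.22 to 0.16 for Fcgr3. Array quality weights gave 0.33 for Cd55, -0.11 for C1s1, 0.12 for Cd46, 0.50 for Clu and -0.21 for Fcgr3. Cd55 was 0.20 as the mean over its probe sets, C1s1 was -0.16 once signals below background were raised to it and -0.00039 after adding a mean background, and Fcgr3 was -0.0042 with quantile normalization. With array quality weights Cd163, a macrophage marker at 0.26, turned to -1.59 and was called (adjusted p = 0.0357). The cause of these changes was not tested, and probe sets near background, such as those of Cfb, C1ra and C3ar1, are less precisely measured than bright ones.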
